A study of Mus musculus with 10 samples.

Results

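The keratins of basal, stressed and simple epithelial cells were examined in bulk RNA-seq of cultured mouse tongue epithelium. The 10 genes were taken by symbol from a table of 18586 rows, as the basal keratins Krt5, Krt14 and Krt15, the stress keratins Krt6a, Krt6b, Krt16 and Krt17, and the simple epithelial keratins Krt8, Krt18 and Krt19. All 10 were present, together with 19 other keratin genes. Each had at least 1 TPM in at least 4 of the 10 libraries, the filter for a gene to be tested, which left 11630 genes. Krt8 passed it with 4 libraries exactly, all of them of EY lines EY4028 and EY4174. TPM divide reads by transcript length and scale the transcripts of each library to the same sum, so that levels of different genes can be set side by side.

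Cultures of the N genotype carried Krt14-CreERT, LSL-rtTA and tetON_H2B-GFP. Cultures of the EY genotype carried these 3 alleles together with tetON_E6-E7, the oncogenes of human papillomavirus, and tetON_YAP1S127A, a form of the transcriptional coactivator YAP1 that escapes inhibitory phosphorylation. Both genotypes therefore received tamoxifen and doxycycline, and in both the Cre was driven by the Krt14 promoter, so that recombined cells descend from cells that used it. Mice were 8 to 16 weeks old, and epithelia were isolated after induction and grown on collagen with doxycycline, EGF and cholera toxin. Cells were sorted for green fluorescence from such cultures and expanded again. The methods describe this step for EY epithelia, and the results of the study name it for both N and EY. The 6 EY libraries came from 3 lines with 2 libraries each, namely EY3960 (EY replicates 1 and 4), EY4028 (2 and 5) and EY4174 (3 and 6). The 4 N libraries all came from line N4172. Genotype and line cannot be told apart in this design, and p-values measure the spread between libraries, of which those of 1 line may be technical replicates.

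Keratins are the intermediate filament proteins of epithelia, and each filament is built from pairs of an acidic type I and a basic type II chain. Krt5 (type II) pairs with Krt14 (type I) in the basal layer of stratified epithelia such as that of the tongue, where Krt15 (type I) is a further basal keratin. Krt6a and Krt6b (type II) pair with Krt16 and Krt17 (type I) in hyperproliferative and wounded epithelium and in appendages. Krt8 (type II) pairs with Krt18 or Krt19 (type I) in simple epithelia, and these chains are also found in many carcinomas. Unpaired chains are in general degraded, so that transcript levels of partners need not equal the levels of the proteins. In bulk samples, fewer cells with a transcript and less transcript per cell cannot be told apart.

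Promoters are shown for the 4 members with an entry among the RefSeq promoters used here (build GRCm38.p6, 250 bases before to 50 bases after the gene start). They are both partners of the basal pair, whose transcripts varied together across libraries, and both partners of the simple pair Krt8 and Krt18. The measured levels of the latter ran opposite to each other among the EY lines, with Krt8 at 1.70 TPM or less and uncertain. Krt15, Krt6a, Krt6b, Krt16, Krt17 and Krt19 had no entry. The motifs searched on both strands were the TATA box TATAAA, the motif GGAATG bound by TEAD factors (the DNA-binding partners of YAP1), the AP-1 motif TGANTCA and the GC box GGGCGG. Capitals mark their matches. Krt14 lies at chr11:100205981-100206280 on the minus strand, Krt5 at chr15:101712856-101713155 on the minus strand, Krt8 at chr15:102004293-102004592 on the minus strand and Krt18 at chr15:102027966-102028265 on the plus strand.
Krt14: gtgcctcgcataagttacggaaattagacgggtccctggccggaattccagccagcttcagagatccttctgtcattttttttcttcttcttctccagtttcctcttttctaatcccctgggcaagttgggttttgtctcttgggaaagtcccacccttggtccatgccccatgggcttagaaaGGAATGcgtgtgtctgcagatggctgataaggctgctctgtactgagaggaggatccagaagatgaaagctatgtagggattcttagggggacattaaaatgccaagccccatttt
Krt5: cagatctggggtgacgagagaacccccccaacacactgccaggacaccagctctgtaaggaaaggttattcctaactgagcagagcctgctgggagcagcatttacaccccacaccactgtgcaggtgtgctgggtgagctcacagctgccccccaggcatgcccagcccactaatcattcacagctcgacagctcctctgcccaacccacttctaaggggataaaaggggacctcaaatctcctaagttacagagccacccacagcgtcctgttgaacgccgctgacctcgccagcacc
Krt8: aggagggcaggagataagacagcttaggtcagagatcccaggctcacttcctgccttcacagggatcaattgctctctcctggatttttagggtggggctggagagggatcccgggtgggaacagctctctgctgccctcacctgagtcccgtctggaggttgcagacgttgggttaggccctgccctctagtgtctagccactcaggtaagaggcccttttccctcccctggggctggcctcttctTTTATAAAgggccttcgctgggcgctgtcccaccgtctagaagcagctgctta
Krt18: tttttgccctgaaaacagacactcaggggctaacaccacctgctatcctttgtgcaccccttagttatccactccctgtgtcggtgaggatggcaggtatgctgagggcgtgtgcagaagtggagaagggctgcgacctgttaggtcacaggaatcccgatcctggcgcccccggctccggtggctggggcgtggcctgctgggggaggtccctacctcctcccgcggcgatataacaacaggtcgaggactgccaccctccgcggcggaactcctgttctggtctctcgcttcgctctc

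Positions are counted from the gene start of each entry, and whether that is the start of the main transcript was not tested. The window of the Krt14 entry held 1 GGAATG, which began at position -66. The Krt8 promoter held a TATAAA on the gene's strand at position -1 and an overlapping match on the other strand at position -3. No match to any of the 4 motifs stood in the windows of Krt5 and Krt18. Among 32544 promoters of the same length, 14.6% held GGAATG, 13.6% TATAAA, 7.79% TGANTCA and 35.9% GGGCGG, so that none of the matches was rare.

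Libraries were alike in breadth. Between 10852 and 11522 genes had at least 1 TPM, mitochondrial transcripts made up 14.1% to 20.4% of a library, and depth is unknown because the values are TPM. Replicate 4 of N stood apart from the other N libraries for some keratins. Without it the same number of members was called in each comparison with N (1 for EY, 5 for EY3960, 2 for EY4028 and 2 for EY4174), and values that moved are given below. Yap1, the endogenous counterpart of the induced YAP1 transgene, was at 34.7 to 57.1 TPM in EY and 17.2 to 20.9 TPM in N. Whether reads of the transgene were counted in the Yap1 row is not known.

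EY was first compared with N to ask which keratin transcripts differ with active YAP1 and E6-E7. Krt19 was higher in every EY library, Krt15 was lower in every EY library, and the other 8 members had overlapping ranges. With limma, 1 of the 10 members was called (Krt19, higher), which required an adjusted p under 0.01 and a log2 fold change beyond 1 in either direction. Over all 11630 genes 413 were called, which is 3.55%. Without the requirement on size, 1 member again and 11.8% of all genes had an adjusted p under 0.01. The libraries of EY and N did not overlap for 2 of the 10 members and for 20.4% of all genes. The median log2 fold change was 0.19 over the members and 0.03 over all genes.

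**Figure D1:**
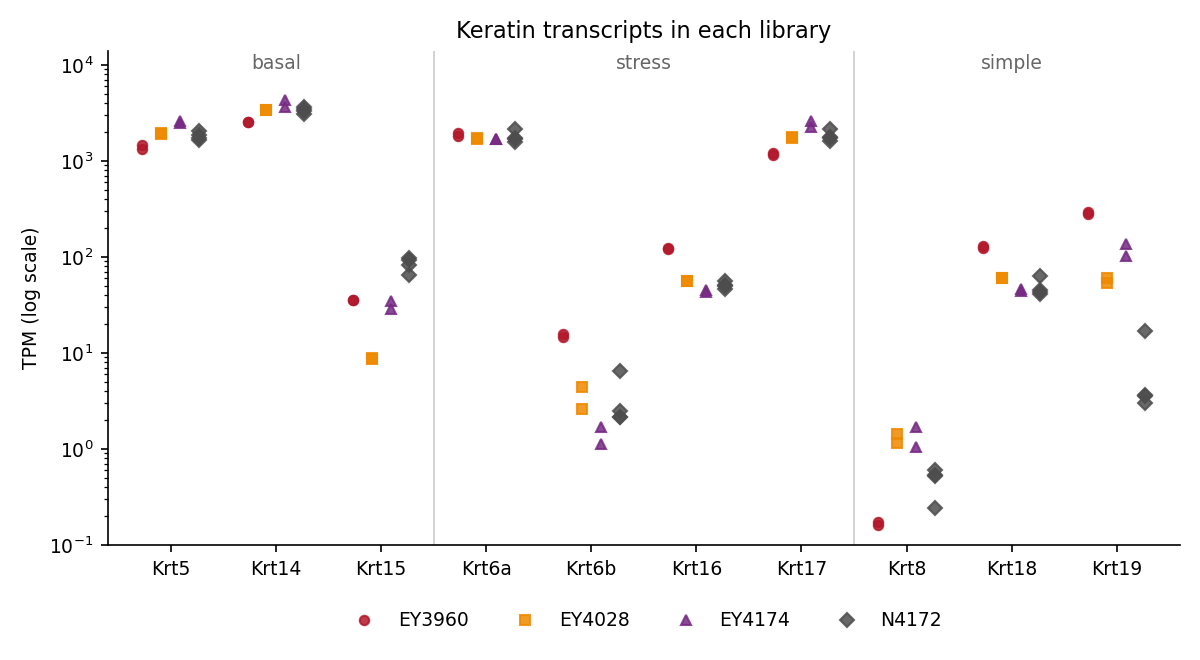
TPM of the 10 keratin genes in each library on a log axis, grouped as basal, stress and simple keratins, with 1 point per library and 1 color per line (EY3960, EY4028 and EY4174 with 2 libraries each, N4172 with 4). Krt19 lies at 53.6 to 296 TPM in EY and 3.00 to 16.8 TPM in N, Krt15 at 8.70 to 35.3 TPM in EY and 64.3 to 97.9 TPM in N, and Krt5, Krt14, Krt6a and Krt17 lie at 1142 TPM or above in every library.

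Among the simple keratins, Krt19 showed the largest difference. It is the type I chain without a tail domain and partners Krt8. Its level was 280 and 296 TPM in EY3960, 53.6 and 59.8 TPM in EY4028 and 101 and 135 TPM in EY4174. In N it was 3.64, 3.52, 3.00 and 16.8 TPM, so that the highest N library lay below the lowest EY library. Its EY mean was 154 ± 108 TPM (SD, n = 6) and its N mean 6.75 ± 6.72 TPM (SD, n = 4), a 22.9-fold ratio. On the log2(TPM + 1) scale, Krt19 was higher in EY by 4.33 ± 0.64 (SE, adjusted p = 0.00174). The large SD of N came from replicate 4. Without that library the ratio of the means was 45.5-fold and the log2 fold change was 4.84 (adjusted p = 9.17e-04). The call did not hold when lines rather than libraries were taken as the unit, with an adjusted p of 0.0370 with line as a random block and of 0.445 with 1 mean per line. By rank, Krt19 lay between place 441 and place 9264 of the 18586 rows across libraries, the widest span of the 10 members.

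Each EY line had more Krt19 than N. The log2 difference was 5.54 ± 0.59 for EY3960 (SE, adjusted p = 5.43e-04), 3.21 ± 0.59 for EY4028 (adjusted p = 0.00738) and 4.24 ± 0.59 for EY4174 (adjusted p = 0.00240). The 3 contrasts share the N libraries. Leaving out N replicate 1, 2 or 3 took the EY4028 call away, with adjusted p from 0.0169 to 0.0214 and log2 differences from 3.00 to 3.07. Without N replicate 4, by contrast, the differences were 6.04 (adjusted p = 6.00e-11), 3.72 (adjusted p = 5.45e-09) and 4.75 (adjusted p = 7.20e-10) in the 3 lines. Among the EY lines, the largest Krt19 difference was 2.33, between EY3960 and EY4028. Its adjusted p was 0.112 in the model of all 4 lines and 8.64e-05 in a model of the 6 EY libraries alone, in which the spread of the N libraries has no part.

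Krt18, the usual type I partner of Krt8, followed line EY3960. It was at 124 and 128 TPM there, at 60.0 and 60.4 TPM in EY4028, at 44.4 and 46.4 TPM in EY4174, and at 43.3, 40.9, 45.0 and 63.5 TPM in N. Both EY3960 libraries lay above all others, whereas EY4028 and EY4174 fell within an N range whose upper end was replicate 4 alone. Both EY4028 libraries and 1 EY4174 library lay above the other 3 N libraries. The EY mean was 77.3 ± 38.5 TPM and the N mean 48.2 ± 10.4 TPM, with a log2 fold change of 0.56 ± 0.33 (adjusted p = 0.253). For line EY3960 alone the log2 difference from N was 1.39 ± 0.15 (SE, adjusted p = 4.91e-05). The differences of EY4028 (0.34, adjusted p = 0.108) and EY4174 (-0.06, adjusted p = 0.782) did not pass. Without N replicate 4 the EY4028 difference was 0.47 (adjusted p = 2.75e-04), still under the size limit, and that of EY4174 0.075 (adjusted p = 0.394).

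Krt8, the type II chain of simple epithelia, was near the limit of the filter in all libraries. It was measured at 0.175 and 0.163 TPM in EY3960, 1.16 and 1.44 TPM in EY4028, 1.06 and 1.70 TPM in EY4174, and 0.535, 0.243, 0.522 and 0.611 TPM in N. The lowest libraries were those of EY3960, the line with the most Krt18, and the N libraries lay between EY3960 and the other EY lines. The log2 fold change of EY over N was 0.33 ± 0.25 (adjusted p = 0.372). EY3960 differed from N by -0.33 (adjusted p = 0.166), EY4028 by 0.64 (adjusted p = 0.0151) and EY4174 by 0.68 (adjusted p = 0.0122). Without N replicate 4 the latter pair were 0.69 (adjusted p = 0.00869) and 0.72 (adjusted p = 0.00679), below the size limit. Fold changes on log2(TPM + 1) understate differences at such levels, and the ratio of the line mean to that of N was 2.72 for EY4028 and 2.88 for EY4174. The processed pseudogene Krt8-ps, which has no row of its own here, shares 32.2% of the 31-base stretches of Krt8 transcripts in GENCODE M21, so that the Krt8 values are uncertain.

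The measured TPM of Krt18 thus exceeded those of Krt8 by a wide margin in every library, although the size of the ratio is as uncertain as the Krt8 values. The ratio of Krt18 to Krt8 TPM was 708 and 790 in EY3960, 51.9 and 41.8 in EY4028, 42.0 and 27.4 in EY4174, and 81.0, 168, 86.3 and 104 in N. Krt19 exceeded Krt18 in EY3960 (ratio of 2.26 and 2.30) and EY4174 (2.28 and 2.90), was close to it in EY4028 (0.893 and 0.990), and was far below it in N (0.0665 to 0.265).

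**Figure D2:**
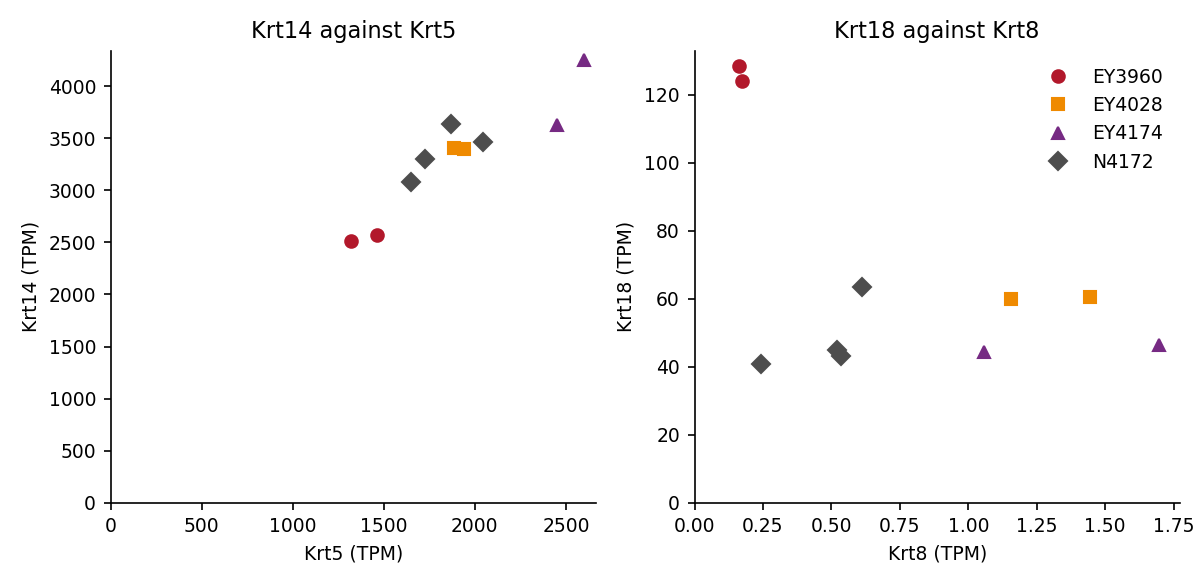
TPM of Krt14 against Krt5 (left) and of Krt18 against Krt8 (right), both on linear axes, with 1 point per library and 1 color and marker per line. The basal partners rise together across libraries, with a Krt14 to Krt5 ratio between 1.48 and 1.94, whereas the 2 libraries of EY3960 have the most Krt18 and the least Krt8. Krt8 is at 1.70 TPM or less in every library.

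Turning to the basal keratins, Krt15 was the only member with lower values in all EY libraries than in all N libraries. This type I keratin is found in basal cells of stratified epithelia and is used as a marker of hair follicle stem cells. It was at 35.3 and 35.3 TPM in EY3960, 8.70 and 8.84 TPM in EY4028 and 28.9 and 34.8 TPM in EY4174, against 97.9, 82.6, 92.5 and 64.3 TPM in N. EY4028 had the least, and the highest EY library lay well below the lowest N library. The means were 25.3 ± 13.0 TPM in EY and 84.3 ± 14.8 TPM in N, a level 3.33-fold lower in EY. The log2 fold change was -1.90 ± 0.46 (SE) with an adjusted p of 0.0168, which misses the threshold of 0.01. Without line EY4028 it was -1.29 with an adjusted p of 2.95e-04.

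Within the model of line means, Krt15 was lower than N in each EY line. The log2 difference was -1.22 ± 0.15 for EY3960 (SE, adjusted p = 1.48e-04), -3.11 ± 0.15 for EY4028 (adjusted p = 1.71e-07) and -1.36 ± 0.15 for EY4174 (adjusted p = 9.78e-05). All 3 lines were called. EY4028 differed from both other EY lines (adjusted p = 7.41e-05 against EY3960 and 1.15e-04 against EY4174), and the difference between EY3960 and EY4174 did not pass (adjusted p = 0.599). Krt15 reached 1.40% of the Krt14 level at most in EY and between 2.09% and 2.83% in N.

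Krt5 and Krt14, the pair that defines basal keratinocytes, were among the most abundant transcripts of every library. Krt5 was at 1321 and 1462 TPM in EY3960, 1884 and 1938 TPM in EY4028 and 2453 and 2601 TPM in EY4174, around the 2045, 1725, 1871 and 1648 TPM of N. Krt14 was at 2517 and 2567 TPM in EY3960, 3407 and 3398 TPM in EY4028, 3623 and 4252 TPM in EY4174 and 3464, 3301, 3639 and 3079 TPM in N. For both genes EY3960 lay below all N libraries. EY4174 lay above them for Krt5 and in 1 of its 2 libraries for Krt14, and the genotype means nearly coincided. The log2 fold change of EY over N was 0.05 ± 0.18 for Krt5 (adjusted p = 0.855), and its sign turned with quantile normalization and without either library of EY4174. For Krt14 it was -0.06 ± 0.14 (adjusted p = 0.803), with the sign turned without either library of EY3960.

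By line, Krt5 was lower than N in EY3960 by 0.39 on the log2 scale (-0.39, adjusted p = 0.00756) and higher in EY4174 (0.48, adjusted p = 0.00264). Krt14 was lower in EY3960 (-0.40, adjusted p = 0.00383), and its difference in EY4174 was 0.22 (adjusted p = 0.0624). None of these exceeded 1 on the log2 scale, and none was called. The Krt14 to Krt5 ratio was between 1.48 and 1.91 in EY and between 1.69 and 1.94 in N, so that the pair kept its proportions more closely than its level.

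The stress keratins split into an abundant and a scarce set. Krt6a, a type II keratin induced by wounding, was at 1813 and 1965 TPM in EY3960, 1676 and 1712 TPM in EY4028, 1698 and 1678 TPM in EY4174 and 1700, 1559, 1725 and 2154 TPM in N. Its groups overlapped, with means of 1757 ± 114 TPM in EY and 1784 ± 257 TPM in N and the highest value in N replicate 4. The log2 fold change was -0.01 ± 0.09 (adjusted p = 0.928), and it became 0.080 without N replicate 4. No line passed the test against N (adjusted p from 0.571 to 0.689), nor did the lines against one another (adjusted p = 0.514).

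Krt17, a type I keratin of appendages and activated keratinocytes, followed the order of Krt5 instead. Its level was 1142 and 1211 TPM in EY3960, 1734 and 1774 TPM in EY4028, 2233 and 2586 TPM in EY4174 and 1747, 1611, 1774 and 2129 TPM in N. Again EY3960 was lowest and EY4174 highest, with N and EY4028 between them. The log2 fold change of EY over N was -0.08 ± 0.22 (adjusted p = 0.817), with the sign turned without either library of EY3960. EY3960 was lower than N (-0.62, adjusted p = 0.00118), and EY4174 had a difference of 0.41 (adjusted p = 0.0134), or 0.49 (adjusted p = 4.16e-04) without N replicate 4.

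Krt16, the type I partner of Krt6 chains, was called higher in line EY3960 and in neither of the other lines. It was at 120 and 124 TPM in EY3960, 56.7 and 55.5 TPM in EY4028, 43.5 and 45.7 TPM in EY4174 and 49.5, 46.6, 51.3 and 56.5 TPM in N. EY3960 lay above all other libraries, whereas EY4028 stood at the upper edge of the N range and EY4174 just under its lower edge. The difference from N was 1.25 ± 0.09 in EY3960 (SE, adjusted p = 1.93e-06), 0.14 in EY4028 (adjusted p = 0.251) and -0.19 in EY4174 (adjusted p = 0.126). Over all EY libraries the log2 fold change was 0.40 ± 0.32 (adjusted p = 0.392), and without EY3960 it was -0.02.

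Krt6b, the less abundant Krt6 gene, had the same order of lines at lower levels. Its values were 14.8 and 15.6 TPM in EY3960, 4.43 and 2.61 TPM in EY4028, 1.71 and 1.12 TPM in EY4174 and 2.17, 2.47, 2.16 and 6.51 TPM in N. EY3960 was above all other libraries, EY4174 below all of them, and N replicate 4 above the other N libraries. EY3960 differed from N by 2.01 ± 0.34 (SE, adjusted p = 0.00161), EY4028 by 0.14 (adjusted p = 0.791) and EY4174 by -0.74 (adjusted p = 0.127). The genotype comparison gave 0.47 ± 0.65 (adjusted p = 0.639), 0.77 without N replicate 4 (adjusted p = 0.463), and -0.30 without EY3960. Krt6b was 0.805% of Krt6a in EY3960, 0.208% in EY4028, 0.0839% in EY4174 and 0.178% in N.

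Sequence shared between keratin genes limits how far these values can be assigned. Of the 31-base stretches of their GENCODE M21 transcripts, 51.3% for Krt6a, 57.0% for Krt6b and 51.9% for Krt16 also occur in another gene, mostly Krt6b, Krt6a and the pseudogene Gm11597, which has no row here. Krt14 shares 28.2%, Krt17 15.8%, Krt5 12.8%, Krt18 11.4%, Krt15 3.74% and Krt19 0.439%. Over stretches of 100 bases the shares are 30.6% for Krt6a and Krt6b, 24.3% for Krt16, 16.9% for Krt8, 2.78% for Krt14 and 2.38% for Krt5, and 0 for the rest. Krt19 and Krt15, the members whose groups did not overlap, are thus the members that share least with other genes, whereas the scarce Krt6b next to abundant Krt6a is uncertain. How reads in shared stretches were divided was not tested.

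Each EY line was then set beside N across the whole list. In EY3960, 4 members were called higher (Krt6b, Krt16, Krt18 and Krt19) and 1 lower (Krt15), 5 of 10 against 7.04% of all genes. In EY4028, 1 was called higher (Krt19) and 1 lower (Krt15), against 5.74% of all genes. The same 2 calls were made in EY4174, against 4.95% of all genes. Krt5, Krt14, Krt6a, Krt17 and Krt8 were called in no line.

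**Figure D3:**
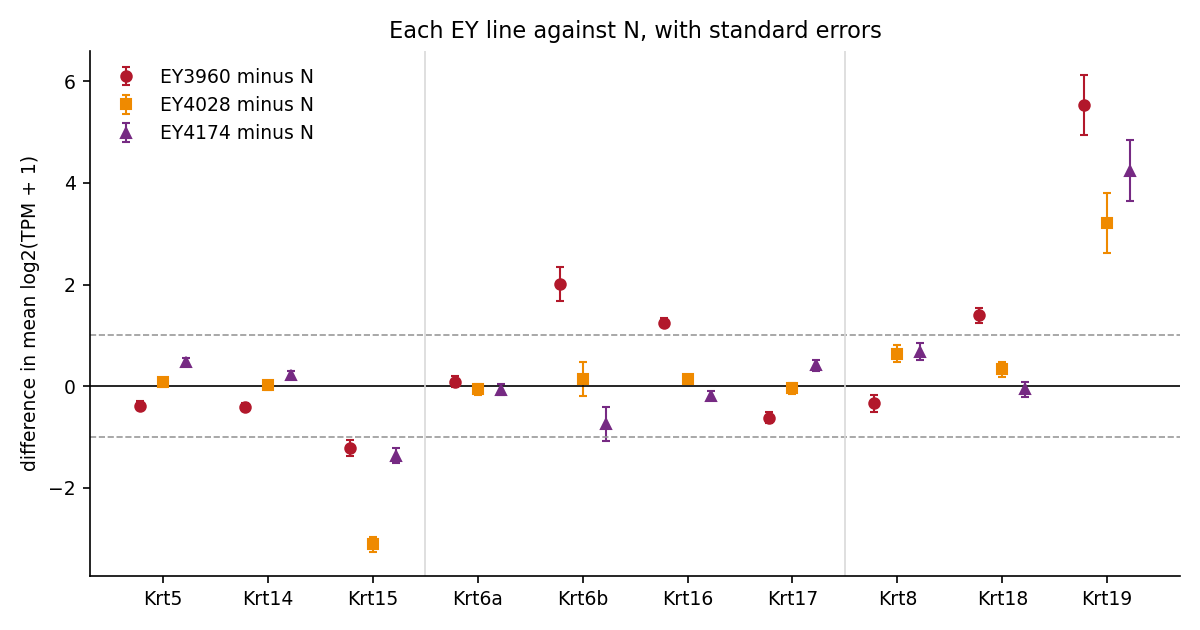
Difference in mean log2(TPM + 1) of each EY line from N for the 10 members, with standard errors from the model of 4 line means; dashed lines mark a difference of 1 in either direction. Krt19 lies above 3 and Krt15 below -1 in all 3 lines, while Krt6b, Krt16 and Krt18 exceed 1 in EY3960 only, with 2.01, 1.25 and 1.39.

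The 3 EY lines, which share a genotype, differed from one another for most members. By limma's F test, 6 of the 10 were called (Krt15, Krt6b, Krt16, Krt17, Krt8 and Krt18) against 5.12% of all genes. Krt8 had passed the filter only through the lines in which it was high, and with 1 TPM required in every library it was not tested and 5 members were called. The largest differences between a pair of lines were 2.75 for Krt6b (adjusted p = 0.00252), 1.89 for Krt15 (adjusted p = 4.13e-05), 1.46 for Krt18 (adjusted p = 4.52e-04), 1.44 for Krt16, 1.03 for Krt17 (adjusted p = 5.37e-04) and 1.01 for Krt8 (adjusted p = 0.00606). Krt17 and Krt8 are just over the limit of 1 on the log2 scale. The Krt8 call was lost with quantile normalization (adjusted p = 0.0131) and in the EY libraries alone (adjusted p = 0.0114). Krt5 (0.86, adjusted p = 6.03e-04) and Krt14 (0.63, adjusted p = 0.00271) passed on p and not on size.

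Line EY3960 had a part in most of these differences. EY4174 against EY3960 gave 5 called members (Krt6b, Krt16, Krt17, Krt8 and Krt18) against 4.32% of all genes. Of these, Krt8 had passed the filter only through lines in which it was high, EY4174 among them. With 1 TPM required in every library Krt8 was not tested, and 4 members were called. EY4028 against EY3960 gave 3 (Krt15, Krt16 and Krt18) against 1.79%, and EY4174 against EY4028 gave 1 (Krt15) against 2.4%. Between EY3960 and EY4028, Krt18 fell just under the size limit when mitochondrial transcripts were left out of the sum (-0.985), and Krt8 was then called at 1.12 (adjusted p = 0.00835).

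Across libraries the members were compared by Pearson's r of log2(TPM + 1), given over 10 libraries and then over the 6 EY libraries. These are descriptions, because libraries of 1 line are not independent. Krt5, Krt14 and Krt17 varied together (r of 0.93 and 0.97 for Krt5 with Krt14, and 0.87 and 0.99 for Krt5 with Krt17). Krt16, Krt18 and Krt6b formed another set, with r of 0.98 and 0.9985 for Krt16 with Krt18, and 0.94 and 0.98 for Krt6b with Krt16. These sets ran opposite to each other, as in Krt5 with Krt18 (-0.77 and -0.96). Krt6a was nearer to the second set (0.58 and 0.89 with Krt18). Krt8 went with Krt5 (0.80 and 0.88) and against its partner Krt18 (-0.47 and -0.93). Krt15 and Krt19 had r of -0.60 over 10 libraries and 0.87 within EY, since EY4028 had the least of both among the EY lines while N had the most Krt15 and the least Krt19. Members of a set were not all neighbors in the genome, since Krt5, Krt6a, Krt6b, Krt8 and Krt18 are on chromosome 15 and Krt14, Krt15, Krt16, Krt17 and Krt19 on chromosome 11. On chromosome 15 the median difference of all tested genes from N was 0.24 in EY3960, 0.16 in EY4028 and 0.06 in EY4174, and on chromosome 11 it was 0.01, 0.17 and 0.05.

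**Figure D4:**
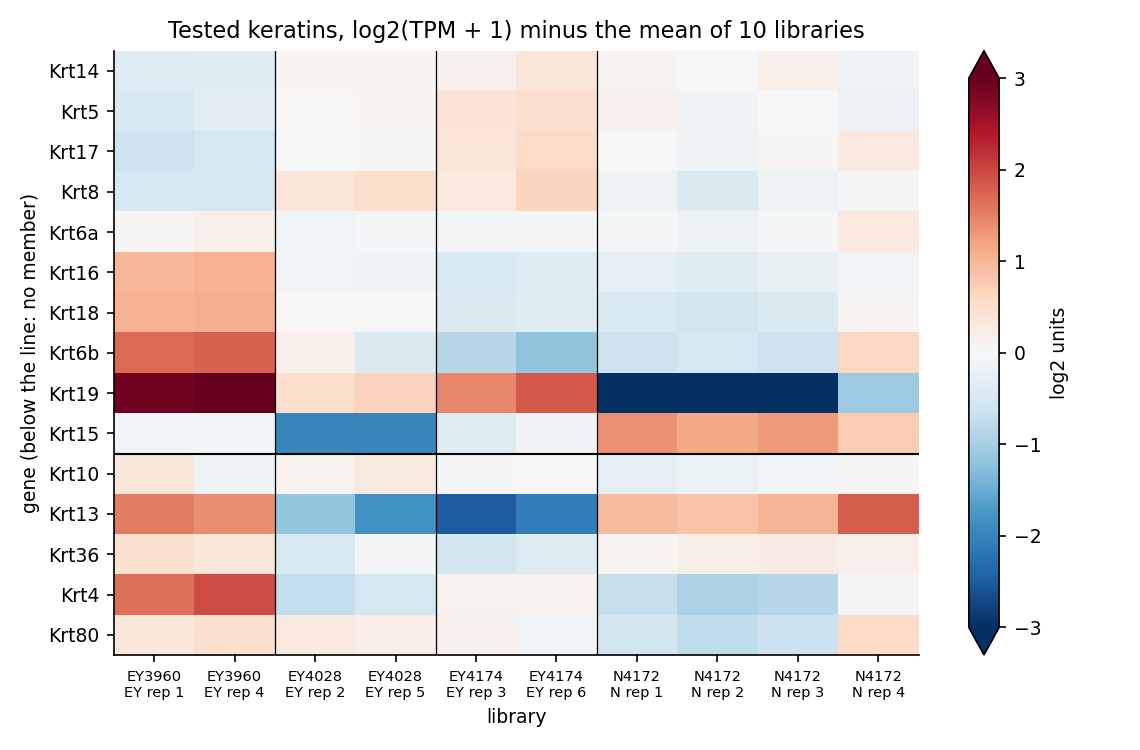
Tested keratins in each library as log2(TPM + 1) minus the gene's mean over the 10 libraries, colored from -3 (blue) to 3 (red), with members above and other keratins below the horizontal line and vertical lines between EY3960, EY4028, EY4174 and N. Krt16, Krt18, Krt6b and Krt19 are red in both libraries of EY3960 where Krt5, Krt14, Krt17 and Krt8 are blue, and Krt15 is bluest in EY4028.

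The genes most like each member over the 10 libraries were found among 7618 non-member genes with a mean of at least 5 TPM. They were Shmt2 (r = 0.99) and Eef2 (0.98) for Krt5, Mtg2 (0.97) and Morf4l1 (0.96) for Krt14, and Tpt1 (0.99) and Ccdc25 (0.98) for Krt15. For the stress keratins they were Acsbg1 (0.97) and Ptms (0.945) for Krt6a, Gsto1 (0.97) and Sptssa (0.96) for Krt6b, Rab5if (0.99) and Ada (0.985) for Krt16, and Nelfcd (0.99) and Rtf2 (0.98) for Krt17. The simple keratins were closest to Rnps1 (0.97) and Pkmyt1 (0.96) for Krt8, Trex2 (0.99) and Pigu (0.99) for Krt18, and Rer1 (0.99) and Cryab (0.99) for Krt19. Members, predicted genes and pseudogenes had been left out of the candidates beforehand. With 10 libraries of 4 lines, high values of r arise easily among so many genes. The changes of the 20 named genes were smaller than those of the member in some cases. Rer1, for example, was at 141 to 174 TPM in EY and 97.5 to 122 TPM in N, a 1.47-fold ratio of the means beside 22.9-fold for Krt19.

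The makeup of the keratin pool was then described. All keratins together made up 0.746% to 1.14% of a library in EY and 0.843% to 0.932% in N. Krt5, Krt14, Krt6a and Krt17 accounted for 91.0% and 91.3% of keratin TPM in EY3960, for 97.5% to 97.7% in the other EY lines and for 96.6% to 97.2% in N. EY3960 thus had a larger share of the scarcer keratins. Simple keratins made up 5.40% of keratin TPM in EY3960, 1.32% in EY4028, 1.52% in EY4174 and 0.609% in N (0.523% without replicate 4). The summed type I members exceeded the type II members in every library, by 1.27 to 1.66 times in EY and 1.42 to 1.56 times in N. Krt16 was 10.4% of Krt17 in EY3960, 3.20% in EY4028, 1.86% in EY4174 and 2.82% in N.

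**Figure D5:**
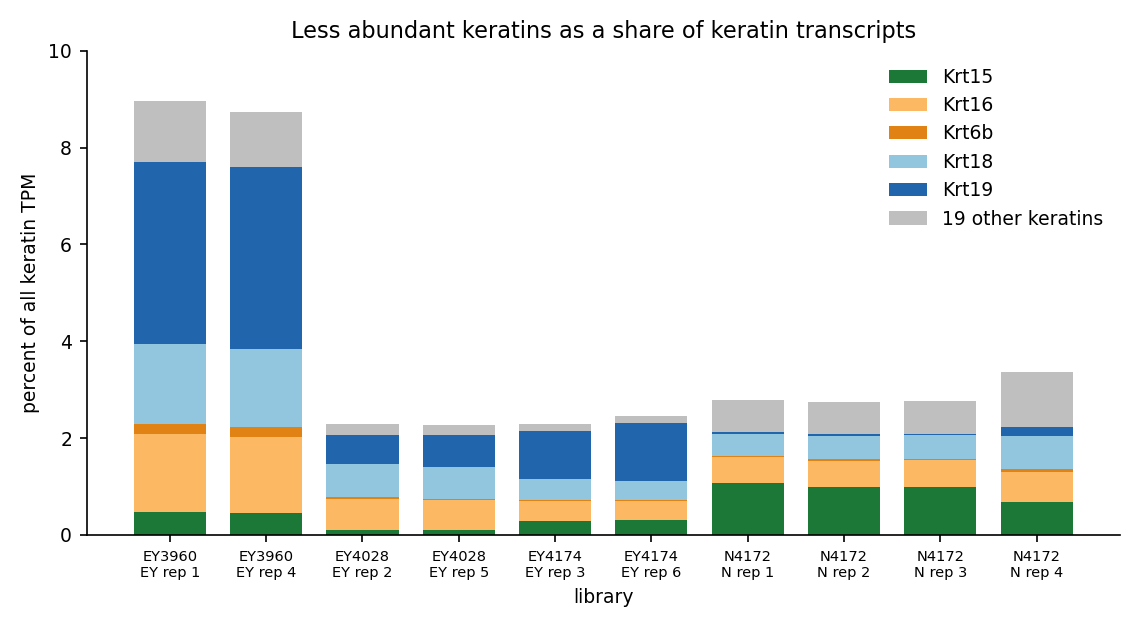
Krt15, Krt16, Krt6b, Krt18, Krt19 and the 19 other keratins as stacked percentages of all keratin TPM in each library, from 0; Krt8 (at most 0.0160%) and the 4 abundant members are not drawn. Krt19 takes 3.75% in both libraries of EY3960, 0.601% to 1.18% in the other EY libraries and 0.0323% to 0.180% in N, and Krt15 takes 0.0977% to 0.473% in EY and 0.690% to 1.06% in N.

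The order of the levels was compared as well. In N, Krt14 (3371 ± 238 TPM) led Krt5 (1822 ± 175), Krt17 (1815 ± 221) and Krt6a (1784 ± 257), which did not differ beyond their SD. Krt15 followed at 84.3 ± 14.8 TPM, then Krt16 (51.0 ± 4.17) and Krt18 (48.2 ± 10.4), which again lay within their spread, then Krt19, Krt6b (3.33 ± 2.13) and Krt8 (0.478 ± 0.161). The order in EY differed between lines and is given by line means. In EY3960, Krt14 (2542 TPM) was followed by Krt6a (1889), Krt5 (1392) and Krt17 (1176), then by Krt19 (288), Krt18 (126), Krt16 (122) and Krt15 (35.3). In EY4028, Krt14 (3403 TPM), Krt5 (1911), Krt17 (1754) and Krt6a (1694) led, and Krt18 (60.2), Krt19 (56.7) and Krt16 (56.1) lay close together above Krt15 (8.77). In EY4174, Krt14 (3938 TPM), Krt5 (2527), Krt17 (2410) and Krt6a (1688) led, followed by Krt19 (118), Krt18 (45.4), Krt16 (44.6) and Krt15 (31.9). Krt15 thus came before Krt16, Krt18 and Krt19 in N and after them in each EY line, and Krt6b and Krt8 came last in all 4 lines.

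The 19 other keratins in the table give the wider family. Of these, 5 were tested (Krt4, Krt10, Krt13, Krt36 and Krt80) and 0 were called between EY and N by limma, with 1 of the 5 (Krt80) at an unadjusted p under 0.05 and adjusted p from 0.106 to 0.384. Krt13, the suprabasal keratin of the tongue, was at 72.5 and 66.0 TPM in EY3960, 10.4 and 6.22 TPM in EY4028, 3.55 and 4.99 TPM in EY4174 and 48.6, 44.8, 50.7 and 88.6 TPM in N. It was called lower in EY4028 (-2.65, adjusted p = 1.25e-04) and EY4174 (-3.45, adjusted p = 2.98e-05) and had a difference of 0.30 in EY3960 (adjusted p = 0.461). Its type II partner Krt4 was at 7.27 and 9.34 TPM in EY3960 and at 0.375 to 1.87 TPM in all other libraries. Krt4 and Krt13 were called between the EY lines (2.44, adjusted p = 3.16e-04, and 3.75, adjusted p = 1.02e-04). Krt4 reached 1 TPM in 5 libraries and passed the filter only with those of EY3960, so that its call draws on the libraries that let it be tested. Krt10 (0.22), Krt36 (-0.27) and Krt80 (0.57) passed neither test. Krt80 was at 1.94 to 3.35 TPM in EY and 1.11, 0.826, 0.983 and 3.71 TPM in N. Without N replicate 4 its groups did not overlap, and the ratio of the means was 2.73 in place of 1.60.

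Among keratins too low to be tested, Krt7, a type II keratin of simple epithelia, was at 0.170 to 0.339 TPM in EY and at 1.84, 1.60, 1.83 and 0.593 TPM in N, and Krt32 was at 0.102 to 0.647 TPM in EY and 0.968 to 1.54 TPM in N. Krt20 was at 0.241 TPM or less in every library. Krt78 (up to 1.11 TPM), Krt76 (up to 0.809), Krt27 (up to 0.770), Krt39 (up to 0.756) and Krt23 (up to 0.681) stayed near 1 TPM or below. The remaining Krt31, Krt33a, Krt42, Krt74, Krt83 and Krt90 reached 0.370 TPM at most.

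Proteins that anchor or organize keratin filaments were examined as a list of 24, of which 20 were tested. Evpl, the desmosomal plakin envoplakin, was the 1 called gene (1.18 ± 0.12, adjusted p = 4.77e-05), 1 of 20 against 3.55% of all genes. An adjusted p under 0.01 was reached by 5 of the 20, all higher in EY, against 11.8% of all genes. The other 4 were Jup, plakoglobin of the desmosome plaque (0.68, adjusted p = 0.00116), Ppl, the plakin periplakin (0.95, adjusted p = 0.00146), Lmna, the nuclear lamin A/C (0.78, adjusted p = 0.00153), and Plec, the linker plectin (0.75, adjusted p = 0.00565). Evpl was at 4.14 to 6.03 TPM in EY and 1.59 to 2.16 TPM in N, and Jup at 52.2 to 73.4 TPM in EY and 34.4 to 46.04 TPM in N. For all 5 genes the lowest EY library was above the highest N library, and 7 of the 20 did not overlap in either direction, against 20.4% of all genes. Dst (-0.47, adjusted p = 0.0124) and Trim29 (-0.78, adjusted p = 0.0225) lay below N in every EY library and missed the threshold. At an unadjusted p under 0.05, 8 of the list were higher and 3 lower, beside 2471 and 1896 of all 11630 genes. The list's median was 0.16 beside 0.03 over all genes. Between the EY lines only Trim29, a TRIM family protein of basal keratinocytes, was called (1.02, adjusted p = 0.00165), 1 of 20 against 5.12% of all genes.

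Of 20 known or candidate regulators of keratin genes, 19 were tested, with 2 called higher and 0 lower, against 3.55% of all genes. They were Yap1 (1.17, adjusted p = 1.73e-04) and the epithelial repressor Ovol1 (1.07, adjusted p = 0.00937). Ovol1, just within both limits, was at 3.75 to 9.09 TPM in EY and 1.58 to 3.02 TPM in N. By line it was called in EY3960 alone (1.71, adjusted p = 4.90e-05). The differences of EY4028 (0.73, adjusted p = 0.0121) and EY4174 (0.77, adjusted p = 0.00946) were under the size limit. Yap1 is the counterpart of the transgene that EY carries, so its call is no finding about keratin regulators. It is included in the counts of regulators that follow. At an unadjusted p under 0.05, 10 were higher and 2 lower, beside 2471 and 1896 of all 11630 genes. With no limit on size, 8 of the 19 had an adjusted p under 0.01, against 11.8% of all genes, and the list's median was 0.32. Trp63, the master regulator of stratified epithelium that activates Krt5 and Krt14, was at 46.0 to 60.5 TPM in EY. In N it was at 73.7, 70.8, 75.3 and 99.9 TPM, the last in replicate 4. The ratio of the EY to the N mean was 0.66, and 0.72 without N replicate 4. Its log2 fold change was -0.58 ± 0.11 (adjusted p = 0.00262), under the size limit, with -0.59, -0.56 and -0.58 in the 3 lines. Krt5 and Krt14, beside it, differed by 0.05 and -0.06. The TEAD factor Tead4 (0.93, adjusted p = 1.42e-04) and the AP-1 subunits Jun (0.95, adjusted p = 0.00684) and Junb (0.62, adjusted p = 8.12e-04) were higher below the size limit. Jun was lowest in N replicate 4 (7.73 TPM), and without that library the ratio of its means was 1.82 in place of 2.02. Grhl3, a factor of late epidermal differentiation, was the 1 regulator called between EY lines (1.36, adjusted p = 0.00266). It was at 2.44 and 2.84 TPM in EY3960 and 0.266 to 1.17 TPM elsewhere. Grhl3 passed the filter with 4 libraries exactly, both of EY3960 among them, so that its call draws on the libraries that let it be tested.

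Markers of other cells that could carry simple or suprabasal keratins were read beside these results. The part of such cells in the keratin values was not tested. Keratinocyte identity genes (6 of 6 in the table) summed to 4189 to 7154 TPM in EY and 5161 to 5865 TPM in N. Taste bud markers (4 of 8 in the table) summed to 0.250 to 1.50 TPM in EY and 0.683 to 1.32 TPM in N, and salivary gland markers (3 of 8) to 0.133 to 2.28 TPM and 0.373 to 0.583 TPM. The mean salivary sum was 2.04 TPM in EY3960, the line with the most Krt19, 1.09 TPM in EY4028, 0.241 TPM in EY4174 and 0.497 TPM in N. Of these markers Ltf was highest, at up to 1.50 TPM in EY and 0.339 TPM in N, and Aqp5, Amy1 and the 4 taste bud markers stayed under 1 TPM in every library. Of the Merkel cell markers (2 of 4 in the table), Krt20 was near 0 and Isl1, also found outside Merkel cells, was at 1.96 to 5.65 TPM in EY and 9.06 to 13.4 TPM in N, opposite to Krt19.

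The summed suprabasal markers were highest in line EY3960. The 7 of 8 in the table, which include Krt4, Krt13 and Krt10 from above, summed to a mean of 1018 TPM in EY3960, 534 TPM in EY4028, 575 TPM in EY4174 and 554 TPM in N, most of it Sbsn (suprabasin). Not all members followed the sum, since Krt10 was at 5.18 TPM in EY3960 and 5.48 TPM in EY4028, and Krt13 differed from N by 0.30 in EY3960. By limma 0 of the 6 tested were called between EY and N, and 1 had an unadjusted p under 0.05. The same line had the most Krt6b, Krt16, Krt18 and Grhl3, and the part of suprabasal cells in those values was not tested. Fibroblast markers (2 of 7) summed to 0.748 TPM at most, endothelial markers (3 of 4) to 0.587 TPM and melanocyte markers (4 of 4) to 3.44 TPM. Immune markers (3 of 6) reached 71.9 TPM through Cd68, which other cells also express, while Ptprc stayed at 0.347 TPM or less. Skeletal muscle markers (2 of 4) reached 12.6 TPM through Mylpf, with Acta1 at 0.274 TPM or less.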

How the data were processed

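The deposited TPM had been computed by the authors for each library and scaled to a common sum, of which each column holds 99.8% to 99.9%. The submitters' processing notes name STAR 2.7.9, SAMtools 1.7, HTSeq 0.13.5 and DESeq2 1.34.0 with build GRCm39, and the study's methods describe both gene counts and Kallisto TPM. Which step made the table, and how reads shared by keratin genes were divided, is not given in the sources used here. Since TPM carry no depth, no counting intervals could be given, and values of scarce transcripts such as Krt8 are the least certain.

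Values were tested on log2(TPM + 1) with limma 3.58.1 (R 4.3.3, moderated variances with trend and robust options) for genes that reached 1 TPM in 4 or more libraries, and p-values were adjusted by Benjamini-Hochberg over all 11630 genes tested. Calls required an adjusted p under 0.01 and a log2 fold change beyond 1 in either direction, as in the study. EY was set against N over all libraries, and the lines by contrasts and an F test in a model of 4 line means. Every adjusted p is from limma. The fits were tested on simulated data. Descriptions used Python 3.11.15 with pandas 2.3.3.

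The members, the lists of other genes and the tests were chosen with earlier results of these data known. Named were all members, every other keratin in the table, Yap1, and the 5 filament partners with the smallest adjusted p. For each member the 2 most correlated non-members with a mean of at least 5 TPM were also named. The regulators named with values, Dst and Trim29 were chosen after their values were seen. Alternatives were another pseudocount, no filter or a stricter one, 3 rescalings, leaving out each library or line, line or sample number as a block, and 1 mean per line. Promoters were from RefSeq (GRCm38.p6), and shared stretches from GENCODE M21, neither of which is the submitters' build, so that no other coordinates are given.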

Additional observations from a re-analysis of the deposited data

Results flagged for a closer look

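For 4 keratins, N replicate 4 was far from the remaining N libraries by a test of the gap to the nearest library at the 95% level, with Krt6b at 6.51 TPM, Krt19 at 16.8 TPM, Krt13 at 88.6 TPM and Krt80 at 3.71 TPM. All were higher than in the other N libraries. Of 30 groups examined for 15 genes, these 4 were the only ones, and chance alone gives about 1.5 at 1 in 20. That figure is rough, because EY libraries come in pairs of the same line and keratins of the same library can vary together.

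The EY lines, which share a genotype, differed by limma's F test for 8 keratins. Krt8 passed the filter only through EY4028 and EY4174, and Krt4 only with EY3960, in each case lines in which the gene was high. The largest log2 difference between a pair of lines was 1.89 for Krt15, 2.75 for Krt6b, 1.44 for Krt16, 1.03 for Krt17, 1.01 for Krt8, 1.46 for Krt18, 3.75 for Krt13 and 2.44 for Krt4. Among the EY lines, EY3960 had the highest level of Krt6b, Krt16, Krt18, Krt13 and Krt4 and the lowest of Krt17 and Krt8, and EY4028 had the lowest of Krt15.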

How the results depend on the processing

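Krt19 stayed higher and Krt15 lower in EY under every alternative run. The Krt19 call of EY over N was lost with line as a random block (203 genes and 0 members called), with 1 mean per line (2 genes and 0 members) and with sample number as a replicate block (221 genes and 0 members, Krt19 adjusted p = 0.0173). The sample numbers do not pair the libraries (r of the differences between lines from -0.15 to 0.052). With at least 1 TPM in every library, fewer genes were tested and called, with 216 for EY over N, 455, 371 and 317 for EY3960, EY4028 and EY4174 over N, 108, 306 and 140 for the pairs EY4028 with EY3960, EY4174 with EY3960 and EY4174 with EY4028, and 350 between the lines. Leaving out single libraries gave 1 to 2 members called for EY4028, and leaving out line EY4028 gave 2 for EY over N, Krt15 being added.

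The differences that changed sign all passed no test. With single libraries left out, EY minus N ranged from -0.038 to 0.16 for Krt5, -0.13 to 0.017 for Krt14, -0.20 to 0.033 for Krt17 and -0.075 to 0.080 for Krt6a. In the same way EY4028 minus N ranged from -0.026 to 0.054 for Krt14, -0.13 to 0.030 for Krt6a and -0.097 to 0.037 for Krt17, and EY4174 minus N from -0.13 to 0.024 for Krt6a and -0.13 to 0.075 for Krt18. Without EY3960, EY minus N was 0.12 for Krt14, 0.19 for Krt17, -0.30 for Krt6b and -0.024 for Krt16, without EY4028 it was 0.011 for Krt6a, and without EY4174 -0.16 for Krt5 and 0.014 for Krt6a. It was -0.0042 for Krt5 with quantile normalization, and 0.11 for Krt6a and 0.023 for Krt17 with the sample block. With median-of-ratios scaling EY4028 minus N was -0.031 for Krt5 and -0.088 for Krt14, and EY4174 minus EY4028 was 0.12 for Krt6a. The cause was not tested. With a pseudocount of 0.1, Krt8 was called between EY4028 and EY3960 (2.37, adjusted p = 0.00975). Unknown depth limits Krt8 and Krt6b most.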

Other observations

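Some of the genes whose levels ran most like a member's lay on 1 chromosome, which was noticed after the values were seen. Both genes nearest to Krt15, Tpt1 and Ccdc25, are on chromosome 14, and both nearest to Krt8, Rnps1 and Pkmyt1, are on chromosome 17. Both nearest to Krt5, Shmt2 and Eef2, are on chromosome 10. The genes nearest to Krt16 (Rab5if and Ada) and Krt17 (Nelfcd and Rtf2) are on chromosome 2, as is Pigu, the second for Krt18. None of these chromosomes holds the member itself. The median log2 difference from N over all tested genes of chromosome 14 was -0.12 in EY3960, -0.26 in EY4028 and -0.19 in EY4174. For chromosome 2 it was -0.02, 0.09 and -0.02 in the same lines. For chromosome 10 it was -0.05, 0.05 and -0.03, and for chromosome 17 -0.02, 0.12 and 0.04. How often such genes share a chromosome by chance was not tested, nor was any link of these medians to the members. Tpt1, a highly abundant transcript, was at 3277 to 3370 TPM in EY3960, 2426 and 2507 TPM in EY4028, 3142 and 3289 TPM in EY4174 and 4209 to 4342 TPM in N.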
